A study of Homo sapiens with 12 samples.

Results

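The genes described here are 10 members of the hypoxia response: EPAS1, which encodes the HIF-2alpha subunit of the hypoxia-inducible factor, and 9 genes known as its targets or as targets of the related factor HIF-1. They are VEGFA, CA9, CA12, SLC2A1, ANGPTL4, PLIN2, NDRG1, EGLN3 and LOX. Each was found by its symbol, and all 10 were present among the 58735 genes listed for 786-O and the 29890 listed for 5637. RNA was sequenced in 12 libraries of the human lines 786-O and 5637. Of the 6 libraries per line, 3 carry, by their titles, an shRNA against CBX7 (shCBX7) and 3 a control shRNA (sh control), while the tables name the columns of the shCBX7 libraries si in both lines. For 2 of the 5637 control libraries the title shows a different cell number, and they were placed by the cell line label, which reads 5637. The labels describe 786-O as renal cancer cells from kidney and 5637 as bladder cancer cells, both grown in RPMI-1640 with serum and neither given a further treatment. The 786-O line is known as a clear cell renal carcinoma line that lacks working VHL and makes HIF-2alpha but no functional HIF-1alpha. CBX7 is a chromobox subunit of Polycomb repressive complex 1. The sources used here do not say how many shRNA sequences or clones were used, nor at which oxygen level cells were kept. No label ties the 3 libraries of a group to separate cultures, and p-values therefore measure the spread between libraries, which may be technical.

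In cells with enough oxygen, prolyl hydroxylases of the EGLN family mark the HIF-alpha subunits, VHL binds the marked subunits, and the proteasome destroys them. When oxygen falls or VHL is lost, HIF-alpha pairs with ARNT and binds DNA at elements with the core ACGTG or GCGTG. In clear cell renal carcinoma the loss of VHL is a founding event, and HIF-2alpha is the subunit known for driving growth there. RNA levels, as measured here, do not report the amount of HIF-alpha protein.

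The starts of the genes are shown first, because the described changes went in different directions among genes whose windows hold the same core. Windows of 250 bases before to 50 bases after the start were taken from RefSeq (GRCh38.p14) and searched on both strands for ACGTG and GCGTG. Windows of 8 of the 10 genes were matched by symbol, and VEGFA and NDRG1 were not matched. RefSeq starts need not be the outermost GENCODE starts given below, and for LOX the first of 3 windows is shown. Printed below are the 250 bases before the start of 6 genes, 5′ to 3′ on the gene's own strand, with the core matches in capitals on whichever strand they lie (ACGTG appears as CACGT and GCGTG as CACGC where the match is on the other strand). The printed bases of ANGPTL4 lie at chr19:8363905-8364154, plus strand, that of PLIN2 at chr9:19127493-19127742, minus strand, and that of LOX at chr5:122078260-122078509, minus strand. Those of CA12 (chr15:63381847-63382096, minus strand), CA9 (chr9:35673678-35673927, plus strand) and SLC2A1 (chr1:42958869-42959118, minus strand) follow.
ANGPTL4: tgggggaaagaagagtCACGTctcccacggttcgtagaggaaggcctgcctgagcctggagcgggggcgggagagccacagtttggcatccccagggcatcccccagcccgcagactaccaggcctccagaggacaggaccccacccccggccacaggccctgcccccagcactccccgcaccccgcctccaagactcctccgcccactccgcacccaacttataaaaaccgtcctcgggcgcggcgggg
PLIN2: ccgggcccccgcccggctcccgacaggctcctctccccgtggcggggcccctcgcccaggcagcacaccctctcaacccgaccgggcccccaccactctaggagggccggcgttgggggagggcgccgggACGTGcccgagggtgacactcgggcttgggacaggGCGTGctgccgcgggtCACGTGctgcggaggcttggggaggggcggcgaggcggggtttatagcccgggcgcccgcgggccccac
LOX: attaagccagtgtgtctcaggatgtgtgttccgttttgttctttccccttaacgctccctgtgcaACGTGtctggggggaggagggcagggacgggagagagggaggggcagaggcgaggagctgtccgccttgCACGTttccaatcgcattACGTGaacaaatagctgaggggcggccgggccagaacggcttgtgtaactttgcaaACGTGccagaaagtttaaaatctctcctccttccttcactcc
CA12: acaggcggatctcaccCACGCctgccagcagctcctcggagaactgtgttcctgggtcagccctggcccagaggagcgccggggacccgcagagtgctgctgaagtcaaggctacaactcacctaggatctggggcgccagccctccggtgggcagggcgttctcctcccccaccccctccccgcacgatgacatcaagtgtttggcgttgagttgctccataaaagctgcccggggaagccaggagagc
CA9: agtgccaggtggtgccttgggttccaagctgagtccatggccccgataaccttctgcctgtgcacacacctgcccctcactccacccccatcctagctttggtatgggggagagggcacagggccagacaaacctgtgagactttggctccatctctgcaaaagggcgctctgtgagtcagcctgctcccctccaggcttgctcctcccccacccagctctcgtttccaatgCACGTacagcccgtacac
SLC2A1: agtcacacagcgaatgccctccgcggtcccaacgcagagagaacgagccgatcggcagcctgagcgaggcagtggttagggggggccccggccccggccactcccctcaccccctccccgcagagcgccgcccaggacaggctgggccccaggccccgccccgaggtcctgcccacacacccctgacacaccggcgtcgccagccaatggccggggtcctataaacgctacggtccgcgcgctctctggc
PLIN2 and LOX held several matches, and the pair of overlapping matches in PLIN2 forms the palindrome CACGTG. ANGPTL4, CA9 and the LOX window shown held ACGTG alone, CA12 and SLC2A1 held GCGTG alone, and PLIN2 held both. SLC2A1 had no match in the printed bases and 1 match at base 26 after its start. EPAS1 held 1 GCGTG and EGLN3 held none. Of all 35116 RefSeq windows of this length, 48.4% held ACGTG or GCGTG on either strand, 21.4% held ACGTG, 36.5% held GCGTG and 7.26% held CACGTG. A match is a description of the letters and not evidence of binding, and elements outside the window were not looked for.

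The library size behind the FPKM scaling, estimated from the smallest steps of the values, was 16503790 to 18966972 in 786-O and 19784637 to 32544603 in 5637. It need not equal the reads sequenced. For control library 1 of 786-O it was 16693519, below the 16961808 reads recovered from the values. CBX7 had 1.01, 0.892 and 1.07 FPKM in the shCBX7 libraries of 786-O, against 1.63, 1.75 and 1.49 FPKM in the sh control libraries. In 5637 it had 1.86, 1.80 and 1.97 FPKM in the shCBX7 libraries, against 2.19, 2.17 and 2.42 FPKM in the sh control libraries. CBX7 RNA was thus at 61.0% of control in 786-O (limma, adjusted p = 0.00364) and at 83.3% in 5637 (limma, adjusted p = 0.0188). In 5637 the call was lost without shCBX7 library 2 (limma, adjusted p = 0.0606) or without control library 3 (limma, adjusted p = 0.0586). Of 9 renal tubule markers, 6 averaged at least 0.5 FPKM in 786-O and 0 in 5637, and of 12 urothelial markers, 3 did in 786-O and 8 in 5637. PAX8 averaged 30.3 FPKM (shCBX7) and 37.8 FPKM (control) in 786-O and was at most 0.175 FPKM in every 5637 library, while KRT5 averaged 265 and 189 FPKM in those arms of 5637 and was 0 in every 786-O library. Some listed markers were low in both lines and went against their label, such as AQP1, at 0.150 FPKM in 786-O and 0.485 FPKM in 5637 controls, and UPK1B, at 0.245 FPKM in 786-O and 0.0415 FPKM in 5637 controls. Summed markers of other cells also separated the arms of both lines, as 60.3% of tested genes did in 786-O and 56.4% in 5637. The urothelial sum in 5637 was 883 to 898 FPKM in the shCBX7 and 660 to 664 FPKM in the sh control libraries. The renal tubule sums in 786-O overlapped, at 93.7 to 98.9 FPKM in the shCBX7 and 98.8 to 106.6 FPKM in the sh control libraries. The 6 leukocyte markers summed to 7.94 to 8.54 FPKM in the shCBX7 libraries and 15.8 to 19.6 FPKM in the sh control libraries of 786-O, nearly all of it LAPTM5 (8.07 and 17.5 FPKM on average in those arms), with PTPRC and CD3E at 0 in all 6. The 12 urothelial markers summed to 20.4 to 23.2 FPKM in the shCBX7 libraries and 14.5 to 15.9 FPKM in the sh control libraries of 786-O, most of it PPARG and ELF3, with KRT5 and UPK3A at 0. In the same line the 6 stromal markers summed to 2.92 to 3.47 FPKM in the shCBX7 and 2.23 to 2.68 FPKM in the sh control libraries, and the 6 endothelial markers to 0.766 to 0.976 FPKM in the shCBX7 and 0.515 to 0.705 FPKM in the sh control libraries, with CDH5 at 0. In 5637 the leukocyte markers summed to 37.3 to 37.8 FPKM in the shCBX7 and 42.6 to 44.5 FPKM in the sh control libraries, nearly all of it LAPTM5, with CD3E at 0. Stromal markers there summed to 12.6 to 13.4 FPKM in the shCBX7 and 14.7 to 15.3 FPKM in the sh control libraries, mostly COL1A1, endothelial markers (5 listed) to 1.52 to 1.63 FPKM in the shCBX7 and 1.86 to 2.35 FPKM in the sh control libraries, and renal tubule markers to 0.746 to 0.807 FPKM in the shCBX7 and 0.867 to 0.978 FPKM in the sh control libraries. The part of these markers in the results below was not tested. In such bulk RNA, fewer cells with a transcript and less of it per cell cannot be told apart.

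Among all tested genes, 51.0% were called in 786-O and 44.5% in 5637 (limma on log2(FPKM + 1), Benjamini-Hochberg adjusted p under 0.05). Changes were larger in 786-O over all tested genes, with a median absolute log2 change of 0.238 there and 0.104 in 5637. Of the 10 genes, 7 were called in 786-O, 4 higher and 3 lower, against a background of 24.7% higher and 26.2% lower. In 5637, 7 were called as well, 2 higher and 5 lower, against 24.4% higher and 20.2% lower. These shares over all tested genes are also the background for the counts of the gene lists below, some of which lie near them. Groups did not overlap for 60.3% of tested genes in 786-O and 56.4% in 5637, and an exact two-sided permutation test of 3 against 3 libraries cannot go below p = 0.1. Log2 changes given below are on the FPKM + 1 scale, which understates the change of low genes, so the ratio of mean FPKM is given beside them. For a gene low in 1 line only, the difference between lines can be overstated or understated.

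EPAS1 (chromosome 2 from 46293667 to 46386703, plus strand, GRCh38) did not pass the test in either line. In 786-O it had 20.4, 19.6 and 20.2 FPKM in the shCBX7 libraries, against 17.8, 19.1 and 19.2 FPKM in the sh control libraries. The shCBX7 values were the higher ones without overlap, by a ratio of 1.07, with a log2 change of 0.10 (95% interval -0.015 to 0.21; limma, adjusted p = 0.131). In 5637 EPAS1 had 51.3, 50.9 and 50.3 FPKM in the shCBX7 libraries, against 50.4, 50.8 and 51.8 FPKM in the sh control libraries. Those arms overlapped, and the log2 change was -0.0058 (95% interval -0.051 to 0.040; limma, adjusted p = 0.831). The genes whose change over the libraries lay nearest to that of EPAS1 were SEL1L3, RNF216 and SLC44A1 in 786-O, compared over 6 libraries, and CAMSAP2 and IMPA2 were among those nearest in 5637, by the root mean square difference of log2(FPKM + 1) values after each gene's own mean was subtracted. That difference was 0.0096 for SEL1L3 among 6292 genes compared in 786-O, and 0.0067 for CAMSAP2 among 7370 genes compared in 5637.

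The sensing machinery around EPAS1 was described by 16 listed genes. VHL, the substrate receptor of the ligase, had 16.0 ± 0.288 FPKM in the shCBX7 libraries and 11.3 ± 0.522 FPKM in the sh control libraries of 786-O (SD, n = 3 each), a ratio of 1.42 (limma, adjusted p = 2.04e-04). In 5637 VHL had 126 ± 0.936 FPKM in the shCBX7 libraries and 130.0 ± 2.40 FPKM in the sh control libraries (SD, n = 3 each; limma, adjusted p = 0.114). HIF1A, the sister subunit, was at 84.1% of control in 786-O (limma, adjusted p = 0.00422). ARNT, the partner of both subunits, was at 88.0% of control in 5637 (limma, adjusted p = 0.00195) and did not pass in 786-O (limma, adjusted p = 0.0594). EGLN1, the chief oxygen-sensing hydroxylase, passed in neither line (limma, adjusted p = 0.316 in 786-O and 0.0538 in 5637). Of the 14 genes of the list tested in 786-O, 1 was called higher and 7 lower. Among those called lower were RBX1, a ring subunit of the VHL ligase, at 69.5% of control, and HIF1AN, the asparaginyl hydroxylase of HIF, at 76.8% of control. In 5637, 5 of 15 were called higher and 3 lower, with CITED2, a competitor of HIF for p300, at 80.0% of control. ARNT2, HIF1AN, EP300 and CREBBP, the last pair being coactivators of HIF, were called lower in 786-O and higher in 5637, and the difference between lines passed for each. These 4 genes, and others named below for opposite calls, were chosen after their values were seen. Opposite calls make a passing interaction nearly certain, so its p-values are no separate support for such genes. All 14 genes of the pathway lists with opposite calls passed it.

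EGLN3 (chromosome 14 from 33924231 to 34462774, minus strand), a hydroxylase that HIF itself induces, fell in both lines. In 786-O it had 3.46, 3.45 and 3.34 FPKM in the shCBX7 libraries, against 4.42, 4.54 and 4.22 FPKM in the sh control libraries, 77.7% of control (log2 change -0.29, SE 0.053; limma, adjusted p = 0.00299). In 5637 it had 5.38, 5.15 and 5.49 FPKM in the shCBX7 libraries, against 6.13, 6.09 and 6.47 FPKM in the sh control libraries, 85.8% of control (log2 change -0.19, SE 0.034; limma, adjusted p = 0.00422). The arms did not overlap in either line, and the difference between lines was not called ( -0.10, 95% interval -0.22 to 0.017; limma interaction, adjusted p = 0.135). The annotated span of EGLN3 contains SPTSSA on the same strand, at 22.1 FPKM in 786-O and 73.7 FPKM in 5637.

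ANGPTL4 (chromosome 19 from 8363289 to 8374373, plus strand), a secreted inhibitor of lipoprotein lipase, rose more than any other of the 10 genes in 786-O. It had 108, 96.7 and 100.03 FPKM in the shCBX7 libraries, against 23.6, 19.2 and 20.4 FPKM in the sh control libraries. The lowest shCBX7 library was far above the highest control library, and the mean was 4.82-fold higher (log2 change 2.22, SE 0.081; limma, adjusted p = 1.86e-06). In 5637 ANGPTL4 had 9.10, 8.31 and 8.53 FPKM in the shCBX7 libraries, against 8.14, 7.24 and 8.13 FPKM in the sh control libraries. The arms did not overlap there, yet the log2 change of 0.13 (95% interval 0.0082 to 0.25) did not pass after adjustment (limma, adjusted p = 0.0787). The change in 786-O exceeded that in 5637 by 2.09 on the log2 scale (SE 0.10; limma interaction, adjusted p = 2.54e-08). Reads for ANGPTL4 numbered 835 to 5088 per library in 786-O and 445 to 689 in 5637.

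VEGFA (chromosome 6 from 43770184 to 43786487, plus strand), the main angiogenic ligand of the response, differed between arms by a ratio of 1.07 in each line. In 786-O it had 47.3, 49.3 and 50.2 FPKM in the shCBX7 libraries, against 47.4, 44.2 and 46.0 FPKM in the sh control libraries, and the arms overlapped (log2 change 0.091, 95% interval -0.018 to 0.20; limma, adjusted p = 0.143). In 5637 it had 18.1, 17.9 and 18.8 FPKM in the shCBX7 libraries, against 16.8, 17.5 and 16.9 FPKM in the sh control libraries (ratio 1.07, log2 change 0.093, SE 0.026; limma, adjusted p = 0.0240). That call was kept in 9 of 13 alternatives, over all of which the log2 change ran from 0.075 to 0.11. The adjusted p of limma was 0.0771 without shCBX7 library 3, 0.0731 without control library 1, 0.0767 without control library 3 and 0.0551 after quantile normalization. The difference between lines was -0.0024 (95% interval -0.11 to 0.11; limma interaction, adjusted p = 0.971).

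Among the other secreted and signalling targets, of 11 tested in 786-O, 8 were called higher and 1 lower, and of 12 tested in 5637, 7 were called higher and 2 lower. EDN1, the vasoconstrictor endothelin-1, averaged 27.8 FPKM in shCBX7 and 3.71 FPKM in control libraries of 786-O (limma, adjusted p = 2.25e-07). In 5637 it averaged 7.22 FPKM in shCBX7 and 3.04 FPKM in control libraries (limma, adjusted p = 2.19e-05). ADM, the vasodilator adrenomedullin, averaged 147 FPKM in shCBX7 and 56.6 FPKM in control libraries of 786-O, and 67.3 FPKM in shCBX7 and 77.1 FPKM in control libraries of 5637, calls of opposite direction whose difference passed (limma interaction, adjusted p = 8.89e-09). CCND1, the cell-cycle cyclin D1, went the other way, at 153 FPKM in shCBX7 and 215 FPKM in control libraries of 786-O and 47.1 FPKM in shCBX7 and 36.2 FPKM in control libraries of 5637 (limma interaction, adjusted p = 1.13e-07). PDGFB, a platelet-derived growth factor chain, averaged 14.6 FPKM in shCBX7 and 8.62 FPKM in control libraries of 5637. VEGFC, a lymphatic relative of VEGFA, was 1.48-fold higher in 786-O and 1.23-fold higher in 5637.

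SLC2A1 (chromosome 1 from 42925375 to 42959176, minus strand) encodes the glucose transporter GLUT1, and SLC2A1-AS1 overlaps its start on the opposite strand at 0.704 FPKM in 786-O. It had 184, 171 and 175 FPKM in the shCBX7 libraries of 786-O, against 326, 273 and 297 FPKM in the sh control libraries. The arms were well apart and the mean fell to 59.2% of control (log2 change -0.75, SE 0.069; limma, adjusted p = 1.05e-04). In 5637 SLC2A1 had 77.4, 78.7 and 75.7 FPKM in the shCBX7 libraries, against 81.8, 83.3 and 84.2 FPKM in the sh control libraries, 93.1% of control (log2 change -0.10, SE 0.022; limma, adjusted p = 0.00854). The fall was larger in 786-O by 0.65 on the log2 scale, with a difference of -0.65 (SE 0.076; limma interaction, adjusted p = 2.61e-05). Of 19 tested glucose targets in 786-O, 4 were called higher and 6 lower. SLC2A3, the neuronal-type transporter GLUT3, averaged 21.8 FPKM in shCBX7 and 8.66 FPKM in control libraries there (limma, adjusted p = 6.09e-06), so the glucose transporters did not move together. PGK1, TPI1, ENO1, LDHA and PFKP, enzymes that turn glucose into lactate, were called lower in 786-O and higher in 5637, and the difference between lines passed for each of the 5. For PGK1 the means were 154 FPKM in shCBX7 and 205 FPKM in control libraries of 786-O, and 160 FPKM in shCBX7 and 142 FPKM in control libraries of 5637 (limma interaction, adjusted p = 2.54e-07). In 5637, 9 of 19 glucose targets were called higher and 2 lower, with PGAM1, a mutase of glycolysis, at 109 FPKM in shCBX7 and 79.6 FPKM in control libraries and ENO2, the neuronal enolase, at 28.9 FPKM in shCBX7 and 37.7 FPKM in control libraries.

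CA12 and CA9 are membrane carbonic anhydrases that help set the pH outside the cell. CA12 (chromosome 15 from 63321378 to 63382161, minus strand) had 23.8, 24.99 and 24.6 FPKM in the shCBX7 libraries of 786-O, against 55.4, 58.0 and 56.9 FPKM in the sh control libraries. The arms were separate and the mean was at 43.1% of control, the largest fall among the 10 genes in that line (log2 change -1.18, SE 0.043; limma, adjusted p = 1.90e-06). In 5637 CA12 had 0.864, 0.848 and 0.903 FPKM in the shCBX7 libraries, against 1.11, 1.11 and 1.20 FPKM in the sh control libraries, 76.6% of control (log2 change -0.19, SE 0.046; limma, adjusted p = 0.0137). That low-level call was lost without control library 3 (limma, adjusted p = 0.0516). The difference between lines was -0.99 (SE 0.049; limma interaction, adjusted p = 2.89e-08). Because CA12 is low in 5637 alone, the FPKM + 1 scale shrinks its fall there and enlarges this difference. Over 19 alternatives it ran from -1.01 to -0.80.

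CA9 (chromosome 9 from 35673856 to 35681159, plus strand), known as a target chiefly of HIF-1, was near the floor of detection in 786-O. It had 0.347, 0.718 and 0.806 FPKM in the shCBX7 libraries, against 0.430, 0.686 and 0.907 FPKM in the sh control libraries, from 11 to 25 reads per library. The arms overlapped, and a change could not be detected at this depth (log2 change -0.046, 95% interval -0.40 to 0.31; limma, adjusted p = 0.818). In 5637 CA9 had 2.06, 1.71 and 2.12 FPKM in the shCBX7 libraries, against 2.56, 2.76 and 2.79 FPKM in the sh control libraries, 72.7% of control (log2 change -0.32, SE 0.061; limma, adjusted p = 0.0050). CA9 overlaps ARHGEF39 on the opposite strand, which at 2.92 FPKM in 786-O and 3.19 FPKM in 5637 was above CA9, and reads of both strands cannot be told apart because the strand setting of the counting is not known here. The difference between lines was not called (0.28, 95% interval -0.088 to 0.64; limma interaction, adjusted p = 0.184). Among the paralogues, CA13 was at 25.5% and CA2 at 53.7% of control in 786-O, and CA14 was at 60.2% of control in 5637.

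PLIN2 (chromosome 9 from 19108375 to 19149290, minus strand), which coats lipid droplets, rose in both lines. In 786-O it had 71.6, 74.7 and 70.7 FPKM in the shCBX7 libraries, against 40.2, 40.2 and 39.7 FPKM in the sh control libraries, 1.81-fold higher (log2 change 0.84, SE 0.041; limma, adjusted p = 6.44e-06). In 5637 it had 51.8, 50.9 and 51.5 FPKM in the shCBX7 libraries, against 39.3, 39.6 and 39.6 FPKM in the sh control libraries, 1.30-fold higher (log2 change 0.37, SE 0.017; limma, adjusted p = 2.65e-05). Arms were apart in both lines, and the rise was larger in 786-O by 0.46 (SE 0.039; limma interaction, adjusted p = 1.78e-06). Among 11 tested genes of the lipid droplet list in 786-O, 5 were called higher and 4 lower. The lower ones were LIPE at 34.4% of control (18 to 102 reads), LPIN1 at 75.2%, PNPLA2 at 78.5% and ACSL3 at 87.1%. G0S2, an inhibitor of the lipase ATGL, averaged 1709 FPKM in shCBX7 and 804 FPKM in control libraries there. HILPDA, a hypoxia-induced droplet protein, was at 20.9 FPKM in shCBX7 and 16.4 FPKM in control libraries of 786-O, but at 32.3 FPKM in shCBX7 and 41.0 FPKM in control libraries of 5637, opposite calls whose difference passed (limma interaction, adjusted p = 4.46e-06). In 5637, 1 of 13 tested droplet genes was called higher and 3 lower.

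NDRG1 (chromosome 8 from 133237171 to 133302022, minus strand), a stress-response gene induced by hypoxia, moved in opposite directions. In 786-O it had 83.7, 82.0 and 84.3 FPKM in the shCBX7 libraries, against 51.0, 47.5 and 46.6 FPKM in the sh control libraries, 1.72-fold higher (log2 change 0.77, SE 0.048; limma, adjusted p = 1.61e-05). In 5637 it had 133, 136 and 131 FPKM in the shCBX7 libraries, against 146, 145 and 145 FPKM in the sh control libraries, 91.9% of control (log2 change -0.12, SE 0.019; limma, adjusted p = 0.00256). Neither line's arms overlapped, and the difference was 0.89 (SE 0.048; limma interaction, adjusted p = 5.20e-08). Of 13 mitochondrial and stress targets tested in 786-O, 7 were called higher and 4 lower, including DDIT4, an inhibitor of mTORC1 signalling, at 424 FPKM in shCBX7 and 224 FPKM in control libraries, and ERO1A, an oxidase of the endoplasmic reticulum, at 31.3 FPKM in shCBX7 and 13.9 FPKM in control libraries. In 5637, 2 of 14 were called higher and 4 lower, and BHLHE40, a transcriptional repressor, was at 81.8% of control.

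LOX (chromosome 5 from 122063195 to 122078360, minus strand), which cross-links collagen and elastin, was low in 786-O. It had 1.63, 1.64 and 1.97 FPKM in the shCBX7 libraries, against 0.734, 0.983 and 0.874 FPKM in the sh control libraries, from 68 to 195 reads. The arms did not overlap and the ratio was 2.03 (log2 change 0.56, SE 0.087; limma, adjusted p = 0.00133), a log2 change that became 1.02 on recovered reads. In 5637 LOX had 8.79, 8.68 and 9.04 FPKM in the shCBX7 libraries, against 9.85, 9.99 and 9.001 FPKM in the sh control libraries. Control library 3 lay among the shCBX7 values, and the change of -0.11 did not pass (limma, adjusted p = 0.0619), but passed without that library (limma, adjusted p = 0.0111) and in 3 further alternatives. The difference between lines was 0.67 (SE 0.087; limma interaction, adjusted p = 5.60e-05). LOX overlaps SRFBP1 on the opposite strand, which was above LOX at 4.58 FPKM in 786-O and below it at 3.91 FPKM in 5637. As for CA9, reads of both strands cannot be told apart, because the strand setting of the counting is not known here. P4HA2, a collagen prolyl hydroxylase, averaged 91.99 FPKM in shCBX7 and 44.2 FPKM in control libraries of 786-O, and 5 of 11 tested collagen genes were called higher there and 0 lower. In 5637, 4 of 12 were called higher and 2 lower, with LOXL2, a relative of LOX, at 85.9% of control.

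**Figure D1:**
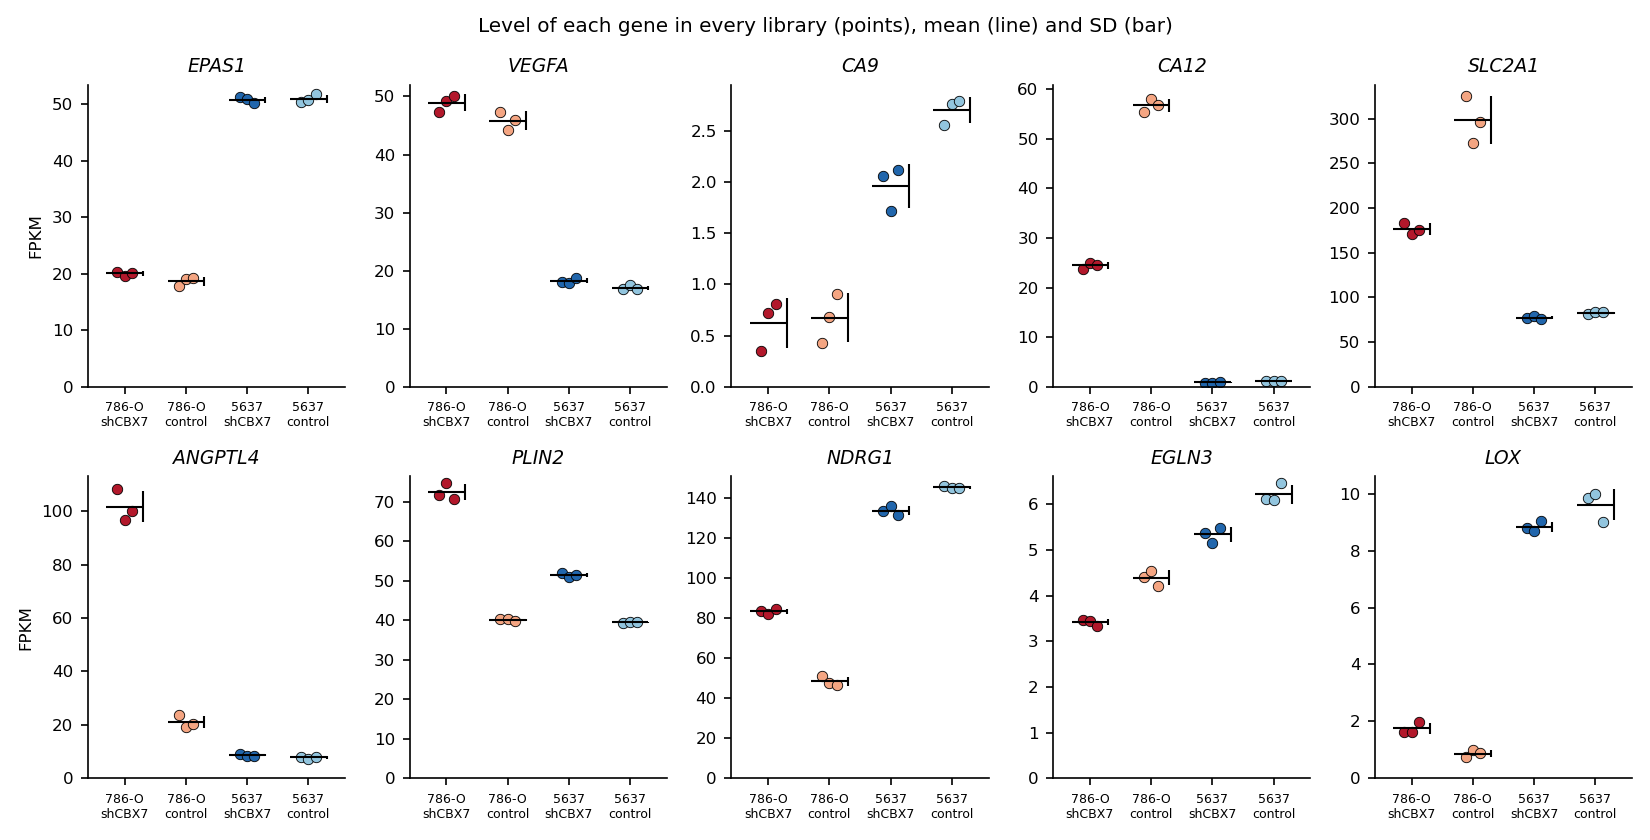
FPKM of each of the 10 genes in every library, in order 786-O shCBX7, 786-O control, 5637 shCBX7 and 5637 control, with the mean as a line and the SD as a bar at its right (n = 3). ANGPTL4 in 786-O stands at 96.7 to 108 FPKM in shCBX7 libraries and 19.2 to 23.6 FPKM in control libraries, while EPAS1 in 5637 sits at 50.3 to 51.3 FPKM in shCBX7 libraries and 50.4 to 51.8 FPKM in control libraries.

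**Figure D2:**
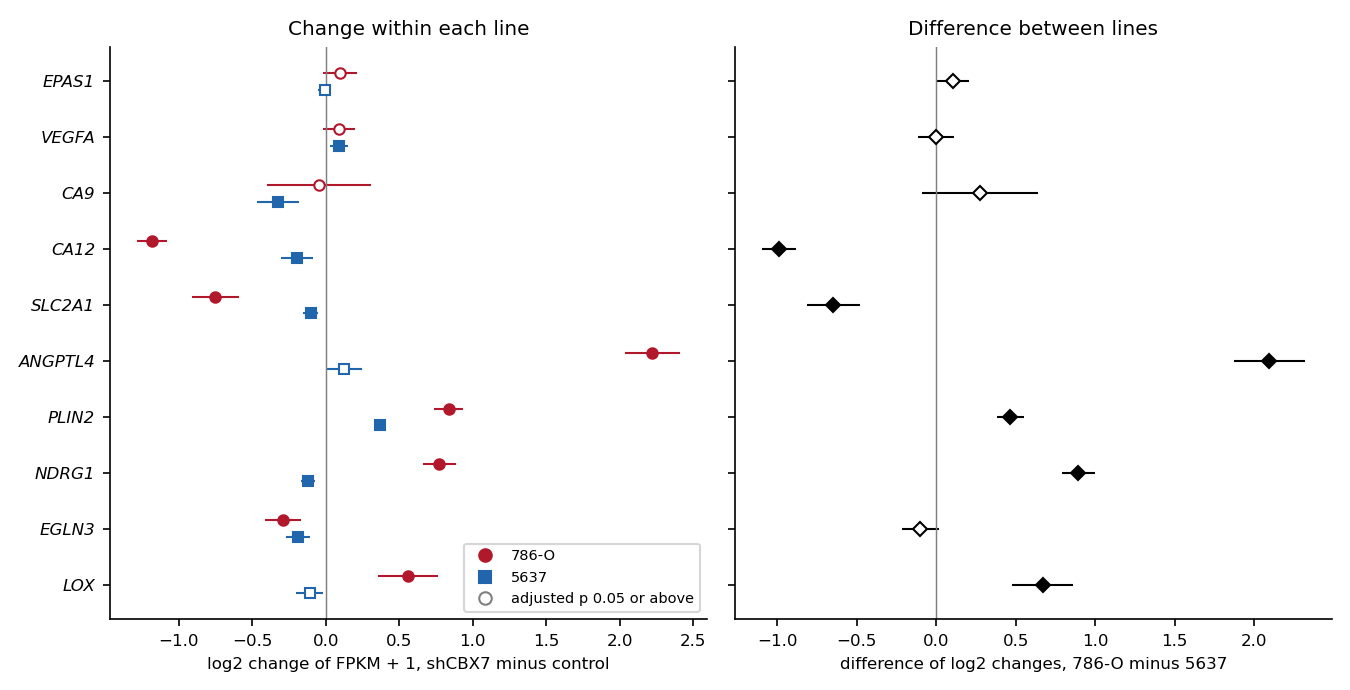
Log2 change of FPKM + 1, shCBX7 minus control, with its 95% interval, in each line (left) and the difference of the changes, 786-O minus 5637 (right), where filled marks are those with a limma adjusted p under 0.05. NDRG1 lies right of 0 in 786-O at 0.77 and left of it in 5637 at -0.12, and ANGPTL4 shows the largest difference, 2.09.

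Across all tested genes, 53.3% differed in their change between lines (limma interaction, adjusted p under 0.05), and 6 of the 10 genes did. ANGPTL4, PLIN2, NDRG1 and LOX had the more positive change in 786-O, 4 genes against a background of 24.3%, and CA12 and SLC2A1 the more negative one, 2 genes against 29.0%. CBX7 itself fell further in 786-O (difference -0.22, SE 0.075; limma interaction, adjusted p = 0.0268), a call kept in 13 of 19 alternatives. The part of this, and of the larger changes of 786-O over all genes, in the differences of these genes was not tested. EPAS1 was not called (0.10, 95% interval -0.00092 to 0.21; limma interaction, adjusted p = 0.0879), although it was after median centring (0.14; limma, adjusted p = 0.0250) and on recovered reads (0.14; limma, adjusted p = 0.0334). Of the 109 genes of the 7 pathway lists, 92 passed the filter on the mean over all 12 libraries and 68 of them differed. Of these 92, 14 were called in opposite directions in the 2 lines, 3 higher and 11 lower in 786-O. Over all 12777 genes compared, 9.91% had such opposite calls, 3.81% higher and 6.10% lower in 786-O. Among the 10 genes, NDRG1 was the 1 with opposite calls. In all lists together, 32 of 85 tested genes were called higher and 25 lower in 786-O, and 30 of 96 were called higher and 20 lower in 5637. The median log2 change of those lists was 0.030 in 786-O and 0.015 in 5637, against -0.011 and 0.0095 over all genes tested in those lines.

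**Figure D3:**
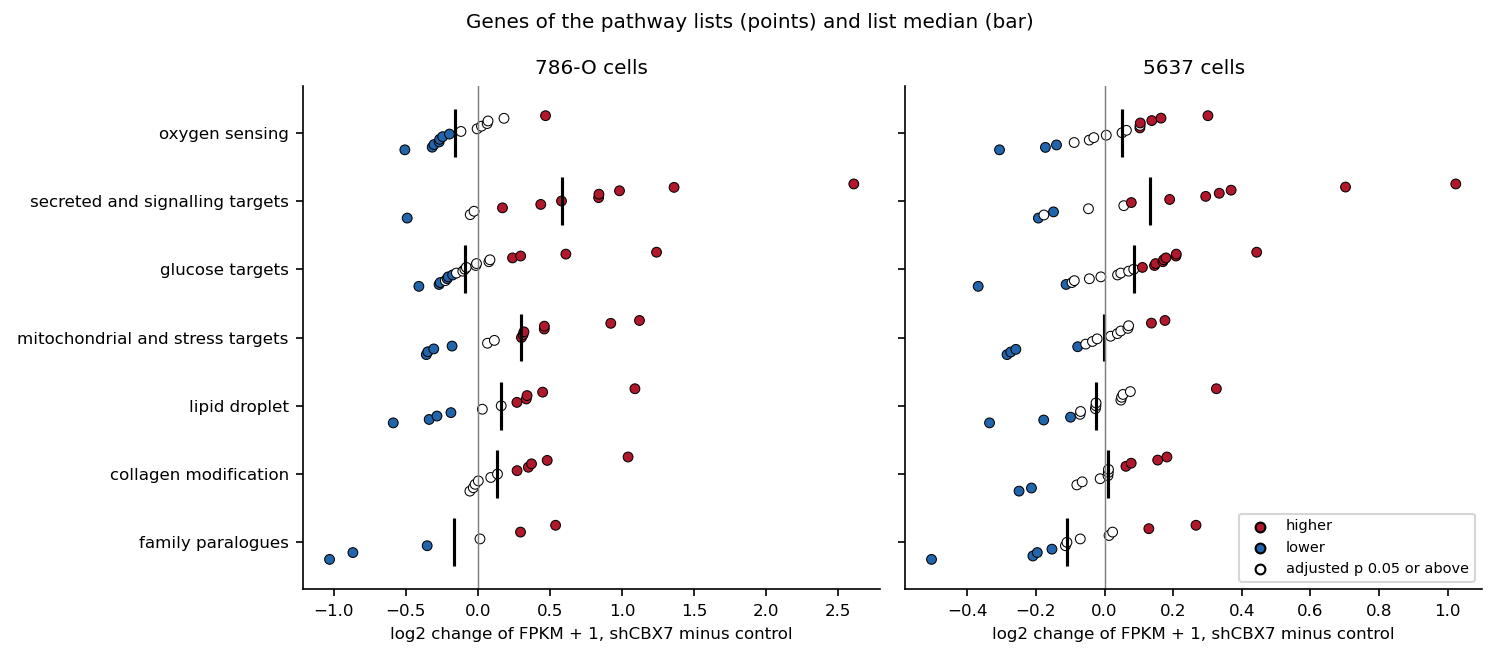
Log2 change of FPKM + 1, shCBX7 minus control, of the tested genes in the 7 pathway lists for 786-O (left) and 5637 (right, on its own narrower axis), with the list median as a bar and colour for the call. The secreted and signalling list has medians of 0.58 in 786-O and 0.13 in 5637, and the oxygen sensing list lies at -0.16 in 786-O and 0.051 in 5637.

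Levels were then set side by side between the VHL-deficient 786-O and 5637, as a description, because the tables of the lines were normalized separately. In the sh control libraries, 4 of the 10 genes were at least 2-fold higher in 786-O (CA12, SLC2A1, VEGFA and ANGPTL4) and 4 at least 2-fold lower (EPAS1, CA9, NDRG1 and LOX), against 20.1% and 36.4% of all genes. In the shCBX7 libraries 4 were at least 2-fold higher and 3 lower, against 19.0% and 37.1% of all genes. CA12 averaged 56.8 ± 1.34 FPKM in 786-O and 1.14 ± 0.0556 FPKM in 5637 controls (SD, n = 3 each), a ratio of 49.8. EPAS1 itself was lower in 786-O, at 18.7 ± 0.801 FPKM against 51.0 ± 0.742 FPKM in 5637 controls (SD, n = 3 each). LOX averaged 0.864 FPKM in 786-O and 9.61 FPKM in 5637 controls. PLIN2 was nearly level, at 40.1 FPKM in 786-O and 39.5 FPKM in 5637 controls. In the shCBX7 libraries the ratio of 786-O over 5637 was 11.8 for ANGPTL4, against 2.69 in controls, and 0.625 for NDRG1, against 0.333 in controls. VEGFA was 2.69-fold higher in 786-O in controls and SLC2A1 3.59-fold. For SLC2A1 in 5637 no whole reads were found with its 786-O gene length, so the length used there may differ. The part of this in its ratio was not tested. VHL RNA averaged 11.3 FPKM in 786-O and 130.0 FPKM in 5637 controls.

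FPKM are scaled by a single listed length per gene, in 786-O 14431 bases for VEGFA, 9823 for NDRG1 and 1670 for CA9. The lengths of the transcripts present are not known here. An order between genes depends on the listed lengths and is given as a description. In order of mean FPKM, the 786-O control libraries ran SLC2A1, CA12, NDRG1, VEGFA, PLIN2, ANGPTL4, EPAS1, EGLN3, LOX and CA9. NDRG1 and VEGFA had overlapping values there (48.4 ± 2.32 and 45.9 ± 1.60 FPKM, SD, n = 3), as did ANGPTL4 and EPAS1 (21.1 ± 2.28 and 18.7 ± 0.801 FPKM) and LOX and CA9. Within every such library, however, NDRG1 was above VEGFA and ANGPTL4 above EPAS1, and no test between genes was run. In the shCBX7 libraries ANGPTL4 stood second, after SLC2A1, and CA12 stood below VEGFA. The 5637 control libraries ran NDRG1, SLC2A1, EPAS1, PLIN2, VEGFA, LOX, ANGPTL4, EGLN3, CA9 and CA12. In the shCBX7 libraries PLIN2 (51.4 ± 0.436 FPKM) and EPAS1 (50.8 ± 0.507 FPKM) changed places, with overlapping values but PLIN2 above EPAS1 in every library. LOX (8.84 ± 0.184 FPKM) and ANGPTL4 (8.65 ± 0.411 FPKM) also had overlapping values there (SD, n = 3).

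**Figure D4:**
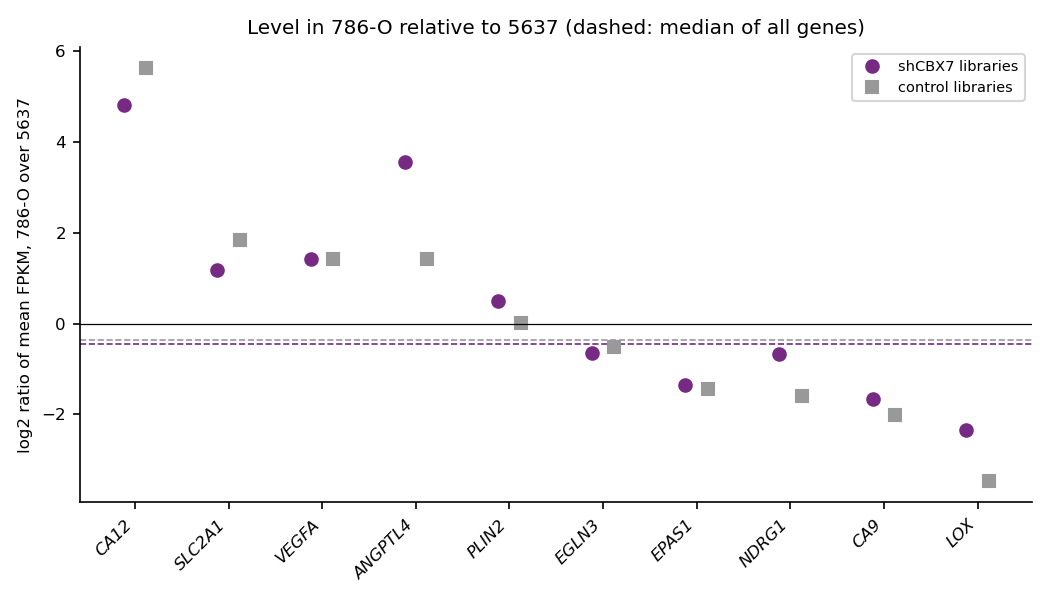
Log2 ratio of mean FPKM, 786-O over 5637, for the 10 genes in shCBX7 libraries (circles, left) and control libraries (squares, right), with dashed lines at the median of all genes (ratios of 0.729 and 0.774). CA12 lies highest, at a ratio of 49.8 in controls, and ANGPTL4 shows the widest gap between arms, 11.8 in shCBX7 and 2.69 in control libraries.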

How the data were processed

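The authors deposited FPKM values, which scale fragments by gene length and by library size, in 1 table per line, as the file headers show. Libraries were made with a directional kit, per the labels' protocols. The sources used here name no aligner or counter. A mouse build, mm10, stands in the submitters' processing notes, but the cells are human, and every one of the 58735 identifiers for 786-O has the position of GENCODE 29 (GRCh38), the build used here for positions. The 5637 table pairs no identifiers, so its symbols were matched to those of 786-O, where 29809 found a gene length.

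Low FPKM values are whole multiples of the worth of 1 read (tolerance 0.01), and whole reads were found for every gene in 786-O and for 28077 of 29890 (93.9%) in 5637. The reads recovered this way served for the read numbers above and for 1 alternative, in which SLC2A1 of 5637 has no value. Its interaction is likewise missing there.

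Genes that averaged 0.5 FPKM or more over a line's 6 libraries were tested on log2(FPKM + 1) with limma 3.58.1 (R 4.3.3, mean-variance trend), shCBX7 minus control, with Benjamini-Hochberg adjustment over all tested genes. Lines were compared by an interaction term fitted to all 12 libraries, on genes above the same mean over the 12. The fit was tested on simulated data. Alternatives were a pseudocount of 0.1, no filter, a mean of at least 1 FPKM, quantile normalization, median centring, no trend, each library left out, voom on recovered reads and, in 786-O, the replicate number as a block. Identical libraries within a line numbered 0 of 15 pairs. Control columns of 5637 could be tied to their group but not to single samples.

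The 10 genes, the 7 pathway lists (109 genes) and the 5 marker lists were chosen with earlier results of these data known. Named pathway genes were up to 3 per list and line with the largest change among those called, at or above a mean of 1 FPKM, with arms that did not overlap, beside VHL, HIF1A, ARNT and EGLN1. For EPAS1 the rule took the 3 nearest genes averaging 5 FPKM or more. Some of the genes these rules take are not reported here.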

Additional observations from a re-analysis of the deposited data

Results flagged for a closer look

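For 6 of the 10 genes the change under shCBX7 differed between the lines by the limma interaction term, given here as 786-O minus 5637 on the log2(FPKM + 1) scale with its adjusted p. The same held for 53.3% of all 12777 genes compared. ANGPTL4 differed by 2.09 (2.54e-08), NDRG1 by 0.89 (5.20e-08), LOX by 0.67 (5.60e-05) and PLIN2 by 0.46 (1.78e-06). CA12 differed by -0.99 (2.89e-08) and SLC2A1 by -0.65 (2.61e-05). Each group of a line has 3 libraries, too few to tell an outlying library from ordinary spread, although each library was left out in turn.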

How the results depend on the processing

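Over all alternatives the members called numbered 7 in 786-O (of 10 tested, or of 9 at a minimum of 1 FPKM, which CA9 missed), ran between 6 and 8 in 5637 and between 6 and 7 for the difference between lines (on recovered reads 9 members were tested in 5637 and for the difference). With each library left out in turn, the genes called ran between 5704 and 6747 in 786-O, 4677 and 5128 in 5637, and 6247 and 7130 for the difference. Of 1226 single-gene values under an alternative, 1169 kept direction and call, 20 gained a call, 23 lost one and 14 changed sign; none of these 14 had been called. The difference between lines for VEGFA became 0.0209 under quantile normalization, 0.0325 under median centring and 0.0187 on recovered reads, and ran between -0.0283 and 0.0212 with a library left out. That of EGLN1 became 0.0223 under quantile normalization. With a library left out, CA9 in 786-O ran between -0.154 and 0.0832 and EPAS1 in 5637 between -0.0144 and 0.00556. The cause was not tested.

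On recovered reads, without the pseudocount of 1, low genes moved further: CA12 in 5637 to -0.40, CA9 in 5637 to -0.49, LOX in 786-O to 1.02, its difference between lines to 1.15, and CBX7 in 786-O to -0.70. VHL in 5637 was called lower under quantile normalization (limma, adjusted p = 0.00690) and on recovered reads (0.0261). CA9 differed between lines without shCBX7 library 1 of 786-O (limma, adjusted p = 0.0326).

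With the replicate number as a replicate block, 6723 genes and 7 of the 10 members were called in 786-O. Deviations of same-numbered libraries correlated by 0.083, 0.077 and 0.057, so the numbers were not taken to pair them, although each library correlated best with its own number. No block was fitted in 5637, where control columns carry no number of a sample. Lowering the minimum to 1 FPKM was an alternative for the genes nearest to EPAS1, of which 1 of 3 in 786-O was named again. Of promoter windows cut to 250 bases, 43.2% held a core.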

Other observations

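PPARG, a nuclear receptor known to act on lipid genes such as ANGPTL4 and PLIN2, was on the urothelial marker list and was picked here after its values were seen. It averaged 11.8 FPKM in shCBX7 and 6.56 FPKM in control libraries of 786-O, and 46.0 FPKM in shCBX7 and 44.5 FPKM in control libraries of 5637. Its part in the ANGPTL4 and PLIN2 results was not tested. CPT1A, which brings fatty acids into mitochondria, averaged 2.37 FPKM in shCBX7 and 1.47 FPKM in control libraries of 786-O. ABHD5, the coactivator of the lipase ATGL, averaged 4.64 FPKM in shCBX7 and 3.46 FPKM in control libraries there. Both are among the 5 droplet genes called higher in 786-O, while 4 were called lower. LOXL1, a relative of LOX, averaged 13.7 FPKM in shCBX7 and 10.4 FPKM in control libraries of 786-O.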
